A study of Sus scrofa with 4 samples.

Results

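The genes described here are 35 genes of B lymphocytes and plasma cells, measured by RNA sequencing in sorted lung cells of pigs. They were taken by name from a list of B cell surface receptors, B cell receptor signal transducers, B lineage transcription factors, receptors of the survival factors BAFF and APRIL, and plasma cell genes. All 35 were found among the 29263 genes counted in each library, 3 of them (MS4A1, CD72 and SPIB) through their Ensembl identifier. The list was drawn up with results of the same libraries in view, and genes on it were in part chosen by their difference in expression between the sorted fractions. That difference is therefore given as a description and not as a test.

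Every library came from pig lung of the genotype LGR5-H2B-GFP knock-in: green fluorescent protein fused to a histone reports LGR5, a receptor for the Wnt-enhancing R-spondins. Cells with bright fluorescence (GFP-HI) and cells without it (GFP-NEG) were sorted in 2 biological replicates, giving 4 libraries, and both fractions carry the knock-in. Per the labels' protocols, minced tissue was rinsed to take away blood and immune cells, digested with dispase, DNase and collagenase, and sorted with propidium iodide against dead cells. The labels describe adult and fetal lung together and do not state which stage, age or sex these libraries have, nor whether the EPCAM and NGFR antibodies that they name were used as gates; the authors named their comparison table of these 4 libraries as one of adult pig. A histone-bound fluorescent protein is stable, so fluorescence can outlast transcription of the reporter. The title says biological replicate. The p-values of the main edgeR fit rest on a spread shared over genes, not on each gene's own spread between these samples.

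B lymphocytes recognise antigen through a membrane immunoglobulin that signals through the CD79A and CD79B chains, whose phosphorylated tails recruit the kinase SYK. The factors EBF1 and PAX5 establish and keep the lineage. On activation, IRF4, PRDM1 and XBP1 turn the cell into a plasma cell, which builds a large secretory apparatus and exports antibody, some of it as polymers joined by the J chain that are carried across mucosal epithelia such as that of the airway. Several of these factors also act in cells outside the B lineage: EBF1 in stromal and fat cell precursors, XBP1 in the unfolded protein response of many secretory cells, PRDM1 in many lineages, and IRF8 in dendritic cells and macrophages.

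The GFP-HI libraries totalled 24200550 and 24689986 counts, the GFP-NEG libraries 6292253 and 7045652. The bright fraction thus held 3.67 times as many counts, and depth and fraction cannot be told apart by design. Even so, fewer genes had a count in GFP-HI (18752 and 18392) than in GFP-NEG (24120 and 25985). The cause of this was not tested, and it bears on members with few counts in GFP-HI. LGR5, the check of the sort, gave 3218 and 3073 counts in the bright fraction against 10 and 7 in the negative one. Values below are CPM, counts divided by the library total after TMM scaling, on edgeR's usual scale, and 1 count was worth 0.0453 and 0.0496 CPM in the GFP-HI libraries and 0.155 and 0.109 CPM in the GFP-NEG libraries. In such bulk samples, fewer cells of a type and less RNA per cell cannot be told apart.

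Most B cell and plasma cell genes were far lower in the bright fraction. Of the 35 genes, 31 were lower in GFP-HI than in GFP-NEG within both replicates, 3 (EBF1, XBP1 and PRDM1) were higher within both, and SWAP70 was lower in replicate 1 and higher in replicate 2. One gene, FCER2, did not reach the filter on low counts. Among the 34 that did, 26 were lower and 1 (EBF1) was higher in GFP-HI at an adjusted p-value under 0.05 in edgeR's quasi-likelihood test over 19682 genes, a threshold that 27.6% of all genes passed as lower and 8.35% as higher. Both GFP-HI libraries lay below both GFP-NEG libraries in 29 of the 34, against 41.9% of all genes tested, and above both in 3, against 27.9%. The 7 members that did not pass the edgeR threshold were CD79A, SWAP70, IRF8, TNFRSF13B, TNFRSF17, XBP1 and PRDM1. The median log2 fold change was -3.75 over the 34 genes and -0.25 over all genes tested. Because this contrast served in choosing the genes, nothing is read from these counts.

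**Figure D1:**
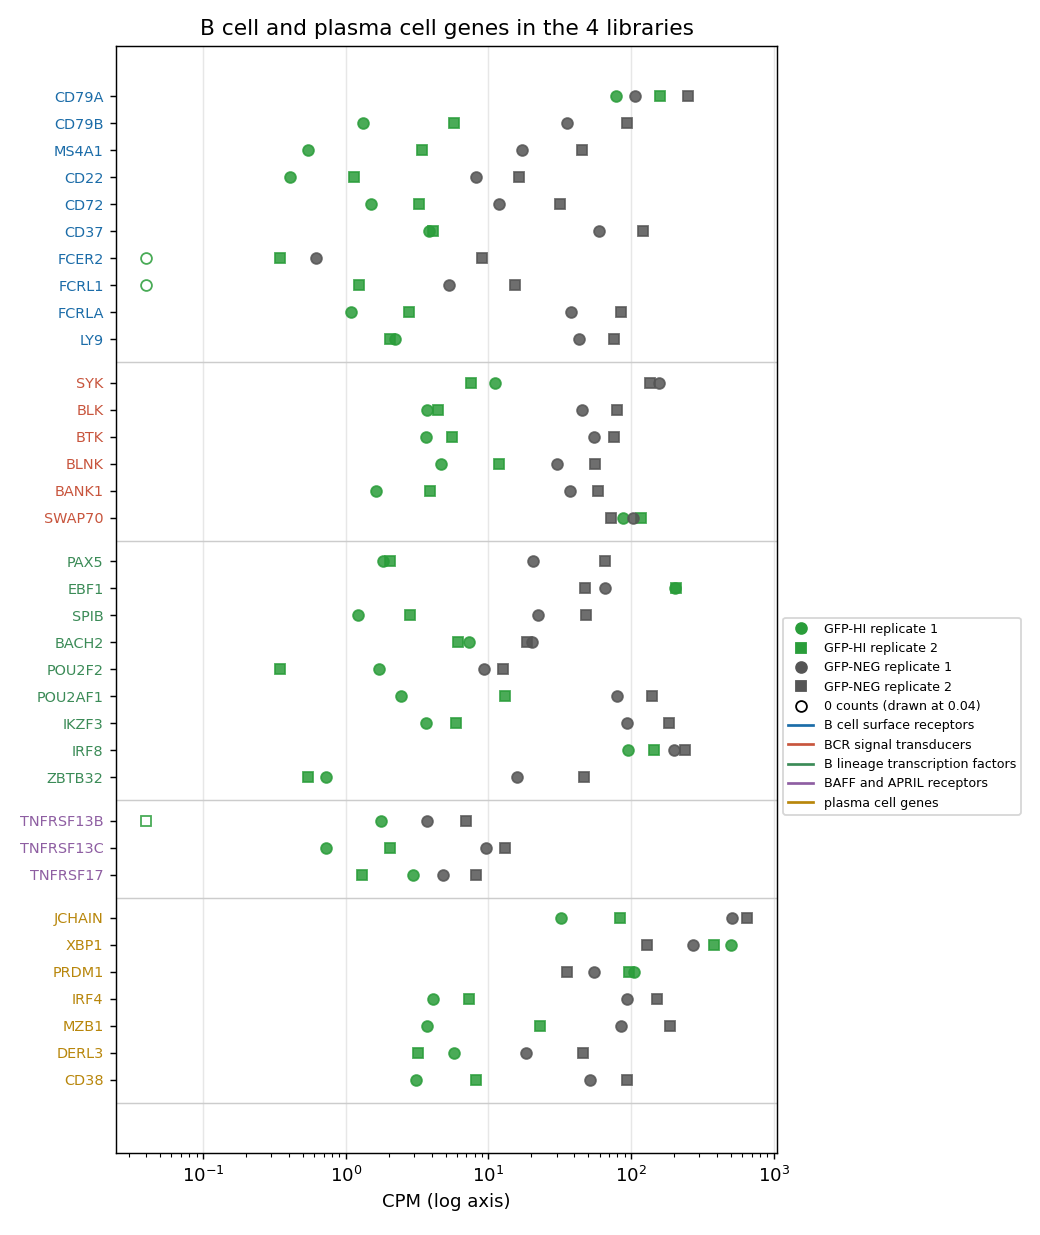
CPM of each of the 35 genes (log axis) in the 2 GFP-HI libraries (green) and the 2 GFP-NEG libraries (grey), with circles for replicate 1 and squares for replicate 2, and gene names coloured by role. Open symbols are libraries with 0 counts; green lies to the left of grey except at CD79A and SWAP70, where the fractions overlap, and at EBF1, XBP1 and PRDM1, where green lies to the right.

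Leaving out single libraries changed which genes passed the threshold. Without GFP-NEG replicate 2 the number lower was 21, as CD72, FCRL1, BLNK, BACH2 and DERL3 no longer passed, and leaving out GFP-HI replicate 1 it was 23, as FCRL1, BLNK, BACH2 and TNFRSF13C no longer passed while TNFRSF13B did. Without GFP-HI replicate 2, BACH2 and POU2F2 missed the threshold (EBF1 is given below), and BACH2 alone did when GFP-NEG replicate 1 was omitted. The member median was -3.15 without GFP-HI replicate 1. In each such fit a lone library was taken to vary like the rest.

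CD79A and CD79B, the paired signalling chains of the B cell receptor, had unlike counts in the bright fraction. CD79B was at 1.31 and 5.70 CPM in GFP-HI and at 35.3 and 93.0 CPM in GFP-NEG. It was thus 26.9-fold lower in GFP-HI in replicate 1 and 16.3-fold lower in replicate 2. CD79A was at 77.8 and 159 CPM in GFP-HI and at 106 and 249 CPM in GFP-NEG. Its fractions overlapped, and within a replicate GFP-HI was lower by only 1.367-fold and 1.565-fold. The fitted log2 fold change of CD79A was -0.60 with a standard error of 0.59, and it came to 0.12 with GFP-NEG replicate 2 left out and to 0.0035 with GFP-HI replicate 1 left out.

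The same contrast stands in the raw counts, which need no scaling between libraries. CD79A made up 98.3% of the counts of the pair in GFP-HI replicate 1 (exact 95% binomial interval 97.6 to 98.9%, 1717 against 29 counts) and 96.5% in replicate 2 (95.9 to 97.1%, 3216 against 115 counts). In GFP-NEG it made up 75.1% (72.1 to 77.8%, 686 against 228 counts) and 72.8% (71.2 to 74.4%, 2298 against 857 counts). The 2 libraries of a fraction were close to each other and the fractions were far apart. Such intervals cover counting error only, and the ratio of the chains is not corrected for their length. Next to CD79A in the RefSeq annotation of the pig assembly Sscrofa11.1 lie ARHGEF1 and RPS19, neither of which overlaps it. ARHGEF1, a guanine nucleotide exchange factor, was at 42.5 and 25.2 CPM in GFP-HI and at 55.9 and 116 CPM in GFP-NEG. RPS19 was not found under that symbol among the genes counted, so its counts could not be set beside those of CD79A. Whether reads of a neighbouring gene entered the CD79A counts was not tested, which bears on the level of CD79A in GFP-HI and on its ratio to CD79B.

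The other surface receptors followed CD79B. MS4A1, which encodes CD20, was at 0.543 and 3.42 CPM in GFP-HI and at 17.2 and 45.6 CPM in GFP-NEG. CD22, an inhibitory lectin that dampens B cell receptor signalling, was at 0.408 and 1.14 CPM against 8.21 and 16.3 CPM. CD72, another inhibitory coreceptor, was at 1.49 and 3.27 CPM against 11.8 and 31.8 CPM. In all 3 the fractions were apart, and the gap within a replicate ran from 7.88-fold (CD72, replicate 1) to 31.6-fold (MS4A1, replicate 1).

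CD37, a tetraspanin of mature B cells, was at 3.85 and 4.11 CPM in GFP-HI and at 59.0 and 121 CPM in GFP-NEG. LY9, a SLAM family receptor shared with T cells, was at 2.22 and 2.03 CPM against 42.8 and 76.0 CPM. FCRLA, an intracellular Fc receptor-like protein of B cells, was at 1.09 and 2.78 CPM against 38.1 and 84.8 CPM, which is 35.1-fold and 30.5-fold lower in GFP-HI. For CD37 and LY9 the GFP-HI libraries were nearly level while GFP-NEG replicate 2 was the higher of its fraction.

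FCRL1 and FCER2 had 0 counts in GFP-HI replicate 1. FCRL1, an Fc receptor-like coreceptor, was counted 0 and 25 times in GFP-HI, against 34 and 141 times in GFP-NEG. Set against a floor of 3 counts per library, it was at least 38.8-fold lower in GFP-HI in replicate 1, and it was 12.4-fold lower in replicate 2. FCER2, the low-affinity IgE receptor CD23 of naive B cells, was counted 0 and 7 times in GFP-HI, against 4 and 83 times in GFP-NEG. Its GFP-NEG libraries differed by 14.5-fold in CPM, the widest gap between GFP-NEG replicates among the 35 genes.

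The B cell receptor signal transducers SYK, BLK, BTK and BANK1 were low in GFP-HI as well. SYK, the kinase that docks on the tails of CD79A and CD79B, is also used by myeloid cells. It was at 11.2 and 7.53 CPM in GFP-HI and at 157 and 135 CPM in GFP-NEG. BLK, a SRC family kinase of B cells, was at 3.71 and 4.41 CPM against 45.1 and 79.6 CPM, and BTK, the kinase mutated in X-linked agammaglobulinaemia, at 3.67 and 5.55 CPM against 55.0 and 75.3 CPM. BANK1, a B cell scaffold, was at 1.63 and 3.87 CPM against 37.3 and 58.7 CPM. For these 4 genes the 2 fractions were separated by 12.1-fold to 22.9-fold within a replicate.

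BLNK, the adaptor that links SYK to phospholipase C, had a narrower gap, with 4.66 and 11.9 CPM in GFP-HI and 30.4 and 56.1 CPM in GFP-NEG, or 6.51-fold and 4.70-fold. SWAP70, a RAC exchange factor present in B cells and in many other cells, was at 87.3 and 118 CPM in GFP-HI and at 103 and 72.7 CPM in GFP-NEG. Its fractions overlapped and its order turned between the replicates. The fitted log2 fold change of SWAP70 was 0.22, and it was -0.20 with library size alone as the scaling and -0.09 with upper-quartile scaling.

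Transcription factors of the B lineage split into those that followed the receptors and those that did not. PAX5, the factor that keeps B cell identity, was at 1.81 and 2.03 CPM in GFP-HI and at 20.5 and 65.1 CPM in GFP-NEG. SPIB, an ETS factor of B cells and plasmacytoid dendritic cells, was at 1.22 and 2.82 CPM against 22.2 and 48.1 CPM. IKZF3, which encodes the lymphoid zinc finger protein Aiolos, was at 3.67 and 5.90 CPM against 93.6 and 185 CPM. ZBTB32, a zinc finger repressor, was at 0.725 and 0.545 CPM against 15.8 and 46.7 CPM, which is 21.8-fold lower in replicate 1 and 85.6-fold lower in replicate 2. The fractions did not overlap in any of the 4.

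POU2AF1, the coactivator that binds octamer factors, was at 2.45 and 13.0 CPM in GFP-HI and at 79.5 and 139 CPM in GFP-NEG. Its gap was 32.5-fold in replicate 1 and 10.7-fold in replicate 2. POU2F2, the octamer factor OCT2, ran the other way, with a 5.40-fold gap in replicate 1 and a 36.3-fold gap in replicate 2, from 38 and 7 counts in GFP-HI. BACH2, a repressor that delays plasma cell formation, had the smallest gap of the 26 lower genes, with 7.29 and 6.10 CPM against 20.1 and 18.6 CPM, or 2.76-fold and 3.04-fold.

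EBF1, which works beside PAX5 in B cells and is also active in stromal cells, was higher in GFP-HI. It was at 203 and 206 CPM in GFP-HI and at 65.9 and 47.3 CPM in GFP-NEG, 3.08-fold higher in replicate 1 and 4.35-fold higher in replicate 2. The fractions were apart and the GFP-HI libraries nearly equal. EBF1 no longer passed edgeR's threshold without GFP-HI replicate 2 (log2 fold change 1.91) or without GFP-NEG replicate 2 (1.59), against 1.85 with all libraries. IRF8, a factor of B cells and of the myeloid lineage, was at 95.5 and 144 CPM in GFP-HI and at 198 and 238 CPM in GFP-NEG, lower in GFP-HI by 2.07-fold and 1.65-fold.

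The receptors of BAFF and APRIL, ligands that keep B cells and plasma cells alive, were counted sparsely throughout, with at most 13.0 CPM in any library. TNFRSF13C, the BAFF receptor, was at 0.725 and 2.03 CPM in GFP-HI and at 9.61 and 13.0 CPM in GFP-NEG. TNFRSF13B, which encodes TACI, was counted 39 and 0 times in GFP-HI, against 24 and 64 times in GFP-NEG, with a 2.11-fold gap in replicate 1 and one of at least 46.7-fold in replicate 2. TNFRSF17, the plasma cell receptor BCMA, was at 2.94 and 1.29 CPM against 4.80 and 8.14 CPM. For TNFRSF13B and TNFRSF17 the GFP-HI replicate 1 library held more than its partner, which is the reverse of TNFRSF13C.

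**Figure D2:**
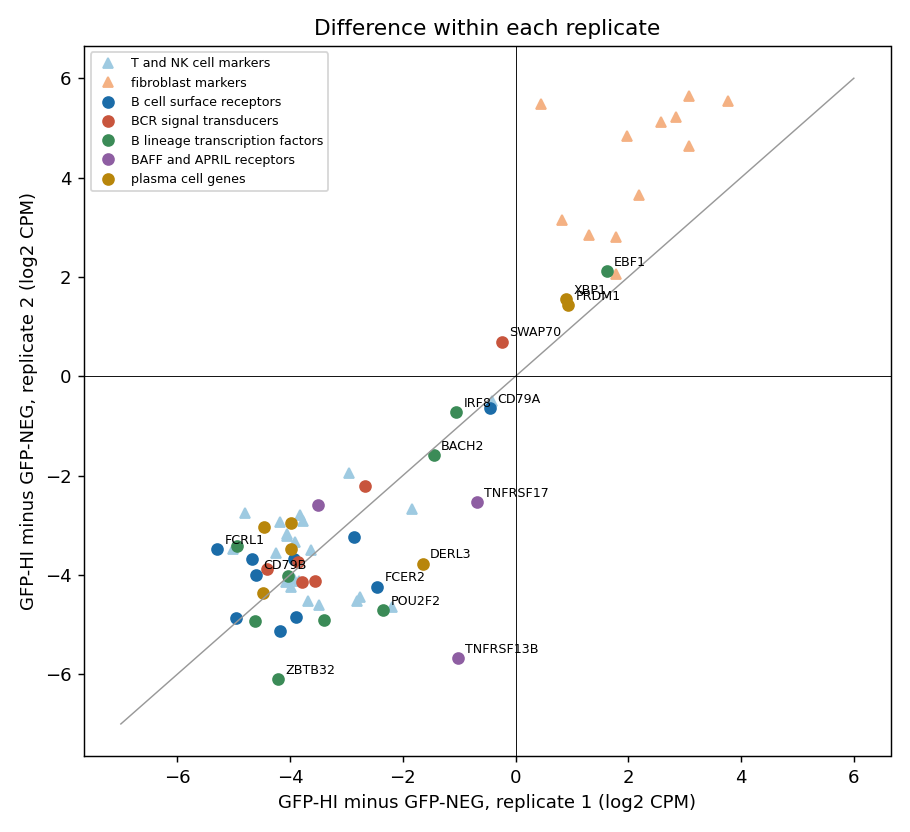
Within-replicate difference of GFP-HI from GFP-NEG, as log2 CPM, for replicate 1 (horizontal) and replicate 2 (vertical), for the 35 genes (circles, coloured by role) and for tested T and NK cell and fibroblast markers (triangles), with the line of equal differences. Most circles lie near -4 on both axes among the T and NK cell markers, whereas EBF1, XBP1 and PRDM1 lie above 0 on both axes.

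Genes of plasma cells divided in the same way. JCHAIN, the joining chain of polymeric antibody, was at 32.3 and 83.2 CPM in GFP-HI and at 510 and 646 CPM in GFP-NEG. MZB1, an endoplasmic reticulum chaperone of antibody assembly, was at 3.71 and 22.8 CPM against 84.3 and 188 CPM. IRF4, the factor that starts plasma cell formation, was at 4.08 and 7.33 CPM against 93.9 and 153 CPM. The fractions were apart in all 3, by 7.76-fold (JCHAIN, replicate 2) to 23.0-fold (IRF4, replicate 1).

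CD38, a surface ectoenzyme of plasma cells and other leukocytes, was at 3.13 and 8.23 CPM in GFP-HI and at 51.1 and 92.8 CPM in GFP-NEG. DERL3, a protein of endoplasmic reticulum quality control, was at 5.75 and 3.22 CPM against 18.3 and 45.9 CPM. Its gap was 3.18-fold in replicate 1 and 14.3-fold in replicate 2. In the RefSeq annotation DERL3 overlaps SMARCB1, a chromatin remodelling gene with 79.8 and 48.1 CPM in GFP-HI and 63.1 and 60.9 CPM in GFP-NEG.

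XBP1 and PRDM1, which act downstream of IRF4 in plasma cells, were higher in GFP-HI. XBP1 was at 502 and 382 CPM in GFP-HI and at 270 and 130 CPM in GFP-NEG, 1.86-fold and 2.94-fold higher. PRDM1, the repressor BLIMP1, was at 105.4 and 96.1 CPM against 55.2 and 35.7 CPM, 1.91-fold and 2.69-fold higher. The fractions did not overlap in either gene, and neither passed the threshold in edgeR. Set against JCHAIN in the same library, PRDM1 made up 76.5% and 53.6% of the counts of PRDM1 and JCHAIN in GFP-HI (exact 95% intervals 74.97 to 78.0% and 52.0 to 55.2%) and 9.75% and 5.24% in GFP-NEG (8.81 to 10.8% and 4.70 to 5.82%).

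The 6 genes CD79A, IRF8, SWAP70, EBF1, XBP1 and PRDM1, grouped after their values were seen, supplied most of the summed level of the 35 in the bright fraction. They held 90.8% and 83.7% of the summed CPM in GFP-HI, against 33.6% and 23.2% in GFP-NEG. Together they came to 1071 and 1106 CPM in GFP-HI and to 799 and 773 CPM in GFP-NEG. The other 29 summed to 109 and 216 CPM in GFP-HI and to 1580 and 2566 CPM in GFP-NEG.

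PTPRC, which encodes the leukocyte surface protein CD45, was itself lower in GFP-HI, at 45.9 and 121 CPM against 686 and 1202 CPM (log2 fold change -3.51, standard error 0.81, adjusted p of 1.57e-04 in edgeR, and -2.81 without GFP-HI replicate 1 or -4.26 without GFP-HI replicate 2). Members were therefore also set against PTPRC within each library, a ratio of counts that needs no scaling. Per PTPRC count, 16 members were lower in GFP-HI in both replicates, 11 were higher in both, and 8 changed order between replicates. All 35 are covered by these 3 numbers, with counts of 0 taken as they stand. Of all genes tested, 15.8% were lower in both replicates on this scale and 73.9% were higher. PTPRC was 14.9-fold and 9.93-fold lower in GFP-HI, so a gene at equal CPM in the fractions comes out higher by those folds per PTPRC count.

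Per 1000 PTPRC counts, CD79B stood at 28.6 and 47.1 in the bright fraction, against 51.5 and 77.4 in the negative one. JCHAIN stood at 704 and 687, against 745 and 537, and CD38 had 68.0 and 68.0 against 74.6 and 77.2. For JCHAIN and CD38 the fractions, far apart in CPM, lay close together on this scale. CD79A, in contrast, stood at 1693 and 1317 in the bright fraction, against 155 and 208 in the negative one, 10.9-fold and 6.35-fold higher, which is short of the folds of a gene at equal CPM. IRF8 was higher by 7.20-fold and 6.01-fold on this scale, XBP1 by 27.8-fold and 29.2-fold, PRDM1 by 28.5-fold and 26.7-fold, and EBF1 by 46.0-fold and 43.2-fold. BACH2 was higher by 5.40-fold and 3.26-fold and BLNK by 2.29-fold and 2.11-fold, although both were lower in CPM. IRF8, BACH2 and BLNK also stayed short of the folds of a gene at equal CPM, whereas XBP1, PRDM1 and EBF1 exceeded them.

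**Figure D3:**
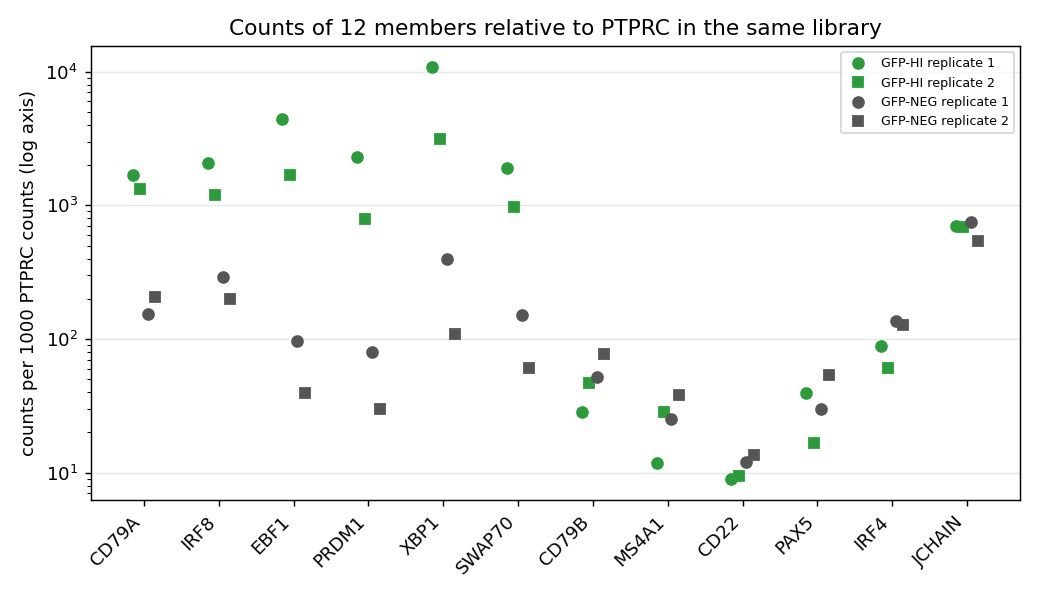
Counts of 12 of the genes per 1000 PTPRC counts of the same library (log axis), green for GFP-HI and grey for GFP-NEG, circles for replicate 1 and squares for replicate 2. The 6 genes on the left lie higher in both GFP-HI libraries than in both GFP-NEG libraries, while CD79B, MS4A1, CD22, PAX5, IRF4 and JCHAIN lie far closer to the grey symbols.

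How the genes differed between the replicates was a contrast that played no part in choosing them. Adjusted for the fraction, which leaves 1 residual degree of freedom per gene, none of the 34 tested genes passed an adjusted p of 0.05 in edgeR's quasi-likelihood test of replicate 2 against replicate 1, which 0.0762% of all genes passed as higher and 0.533% as lower. At an unadjusted p under 0.05 there were 10, but the share over all genes was not computed, so nothing is read from that number. DESeq2 passed 1, MZB1, as higher, and 16 of all 26737 genes in that fit. With library size alone or upper-quartile scaling edgeR passed 3 as higher (CD79B, MS4A1 and MZB1). Of all 19682 genes, 35 and 36 passed as higher with these scalings, and 156 and 131 as lower. Within a single fraction there is 1 library per replicate and no test, so the values that follow are a description. In GFP-NEG, 29 of the 35 were higher in replicate 2, and in GFP-HI 25 were. Of all 19682 genes tested, 10762 were higher in replicate 2 in GFP-NEG and 8645 in GFP-HI. Over the 34 genes that passed the filter, the median log2 difference of replicate 2 minus replicate 1 was 0.84 in GFP-NEG and 0.63 in GFP-HI, against 0.10 and 0 over all genes tested. Among the 26 lower genes, 24 were higher in replicate 2 in GFP-NEG and 20 in GFP-HI.

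The surface receptors carried the clearest form of this pattern. All 9 that passed the filter were higher in GFP-NEG replicate 2 and 8 of the 9 in GFP-HI replicate 2, with median log2 differences of 1.23 in either fraction. MS4A1 was 2.65-fold higher in replicate 2 in GFP-NEG and 6.29-fold higher in GFP-HI. CD79A, despite its level in GFP-HI, kept to the pattern of the receptors, with 2.35-fold and 2.05-fold. MZB1 was 2.23-fold and 6.14-fold higher and POU2AF1 1.75-fold and 5.31-fold higher.

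XBP1 and PRDM1 were lower in replicate 2 in both fractions, by log2 differences of -1.05 and -0.63 in GFP-NEG and -0.39 and -0.13 in GFP-HI. SYK and BACH2, both among the 26 lower genes, were also lower in replicate 2, by -0.22 and -0.12 in GFP-NEG and -0.56 and -0.25 in GFP-HI. LY9, POU2F2, ZBTB32, TNFRSF13B, TNFRSF17 and DERL3 were higher in replicate 2 in GFP-NEG and lower in GFP-HI. The T and NK cell markers shared the direction of the receptors, with medians of 1.13 in GFP-NEG and 1.44 in GFP-HI over 22 genes. Macrophage, dendritic and neutrophil markers had medians of -1.48 and -0.01 over 21 genes and fibroblast markers -1.91 and -0.08 over 12. So in GFP-NEG the lymphocyte lists were higher in replicate 2 where the myeloid and fibroblast lists were lower. The part of these other cell markers in the replicate differences of the B cell genes was not tested.

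**Figure D4:**
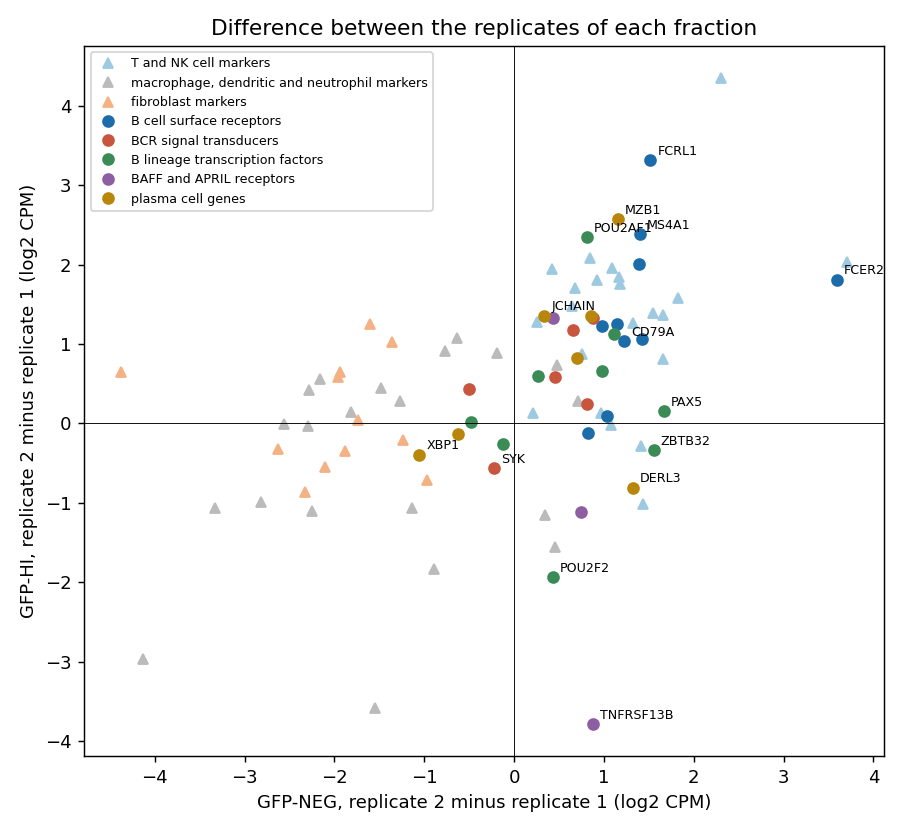
Replicate 2 minus replicate 1 difference in log2 CPM in GFP-NEG (horizontal) and GFP-HI (vertical) for the 35 genes (circles, coloured by role) and for tested markers of other cell types (triangles). B cell surface receptors and T and NK cell markers lie mainly in the upper right, and the fibroblast and most of the macrophage, dendritic and neutrophil markers lie left of 0.

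Other genes of the B cell receptor pathway, from a list that excluded the 35, were mostly lower in GFP-HI. This list and those that follow were drawn up with earlier results of these data known. Their counts and adjusted p-values are therefore a description and not independent support. Of all genes tested, 27.6% were lower and 8.35% higher at the same edgeR threshold. Of 26 tested, 20 were lower at the edgeR threshold and 6 did not pass (DESeq2 called 1 of these, CD81, higher), with a median log2 fold change of -3.18. VAV1, a leukocyte guanine nucleotide exchange factor, fell by 4.03 on the log2 scale (standard error 0.64, adjusted p of 3.65e-08, edgeR). The phosphatase gene PTPN6 fell by 3.92 (adjusted p of 3.35e-06, edgeR). PTPN6 was at -3.30 without GFP-HI replicate 1, and the number of lower genes ran from 16 to 18 with single libraries left out. Members of this list that did not pass, such as the widely expressed PIK3R1 and CD81, had log2 fold changes of 1.00 and 1.28 (named after their values were seen).

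Genes of B cell trafficking and the germinal centre were lower in 12 of 17 tested and higher in 1, with a median of -3.43, which came to -2.69 once GFP-NEG replicate 2 was omitted. CCR7, the receptor for lymph node chemokines, fell by 4.13, and CXCR5, which guides B cells to follicles, fell by 4.08 (adjusted p of 4.74e-10 and 1.39e-06, edgeR). CD24, a surface glycoprotein found on B cells, neutrophils and epithelium, fell by 3.95 (adjusted p of 1.82e-06). With GFP-HI replicate 2 left out CCR7 stood at -5.29 and CXCR5 at -4.74, and with GFP-HI replicate 1 left out at -3.28 and -3.40. With GFP-NEG replicate 2 left out they stood at -3.33 and -3.30 and CD24 at -4.58, and with GFP-NEG replicate 1 left out CD24 stood at -2.87. The gene counted as higher, S1PR2, a sphingosine 1-phosphate receptor named after its values were seen, did not pass without GFP-HI replicate 1 or GFP-NEG replicate 2.

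Among ligands of the B cell niche, 3 of 8 tested were lower (CD40LG, LTA and TNFSF13B, named after their values were seen) and 1 was higher, with a median of -1.16, which came to -1.97 once GFP-HI replicate 2 was omitted. The higher one was CXCL12, a chemokine that retains plasma cells, at 334 and 527 CPM in GFP-HI and 85.8 and 30.8 CPM in GFP-NEG (log2 fold change 2.88, adjusted p of 2.01e-04, edgeR). It did not pass without GFP-NEG replicate 2 (adjusted p of 0.128, edgeR, log2 fold change 2.28), and it was at 3.84 without GFP-NEG replicate 1. Without GFP-NEG replicate 2 no gene of this short list passed in edgeR, and without either GFP-HI library 1 was lower.

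The secretory pathway and unfolded protein response list, on which plasma cells depend and which every secreting cell uses, did not follow JCHAIN and MZB1. Of 22 genes tested, 3 were lower (SLAMF7, ELL2 and, named after its values were seen, EDEM1), 2 were higher and 17 did not pass, with a median of 0.62. SLAMF7, a surface receptor of plasma and cytotoxic cells, fell by 4.34 and ELL2, an elongation factor that favours secreted antibody messages, fell by 2.67 (adjusted p of 3.96e-09 and 2.44e-05, edgeR). CREB3L2, a membrane-bound factor of secretory capacity, rose by 2.38 (adjusted p of 2.95e-04, edgeR), but did not pass without GFP-NEG replicate 2 (1.88), and was at 3.09 without GFP-NEG replicate 1. SDC1, the plasma cell and epithelial surface proteoglycan CD138, was higher by 1.44 (adjusted p of 0.0246, edgeR) and lost this under 6 of the 11 alternatives, DESeq2 and library size alone among them. SLAMF7 was at -3.47 without GFP-HI replicate 1, -5.56 without GFP-HI replicate 2 and -3.44 without GFP-NEG replicate 2. The list's median was 0.16 with library size alone as the scaling, where 5 genes were lower and 1 was higher.

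Lists of other cell types place the 35 genes among the libraries. T and NK cell markers had a median of -3.58 with 21 of 22 lower, and pan leukocyte markers -3.37 with 7 of 7 lower. The T cell marker that did not pass was CD3G, named after its values were seen. It was at 38.9 and 42.5 CPM in GFP-HI and 52.1 and 60.3 CPM in GFP-NEG (log2 fold change -0.47), whereas CD3D and CD3E were at -3.52 and -4.11. Macrophage, dendritic and neutrophil markers had a median of -1.50 with 13 of 21 lower and 1 higher (TCF4, named after its values were seen). Endothelial markers were at -2.34 with 8 of 9 lower, epithelial markers at -1.35 with 3 of 11 lower (NAPSA, CDH1 and SFTPB), and fibroblast markers at 2.95 with 8 of 12 higher. Single libraries weighed on these lists: without GFP-NEG replicate 2 only 2 fibroblast markers were higher, and without GFP-NEG replicate 1 the endothelial, epithelial and myeloid numbers were 3, 1 and 7 and the fibroblast median was 4.61. The medians of the endothelial and myeloid lists were then -1.44 and -0.77. Without GFP-NEG replicate 2 the myeloid median was -2.27 and the fibroblast median 2.25. The T and NK cell median was -4.53 without GFP-HI replicate 2 and -2.995 without GFP-HI replicate 1. Without GFP-HI replicate 1 or 2 the endothelial number was 5 or 2, the epithelial 2 or 1 and the myeloid 10 or 7. Summed over the list, T and NK cell markers came to 134 and 251 CPM in GFP-HI and 1003 and 1999 CPM in GFP-NEG, and pan leukocyte markers to 346 and 652 CPM against 4357 and 6730 CPM. Fibroblast markers summed to 91517 and 81653 CPM in GFP-HI and 30192 and 9782 CPM in GFP-NEG. These lists share the same 4 libraries with the B cell genes, and whether the members differ from them was not tested.

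**Figure D5:**
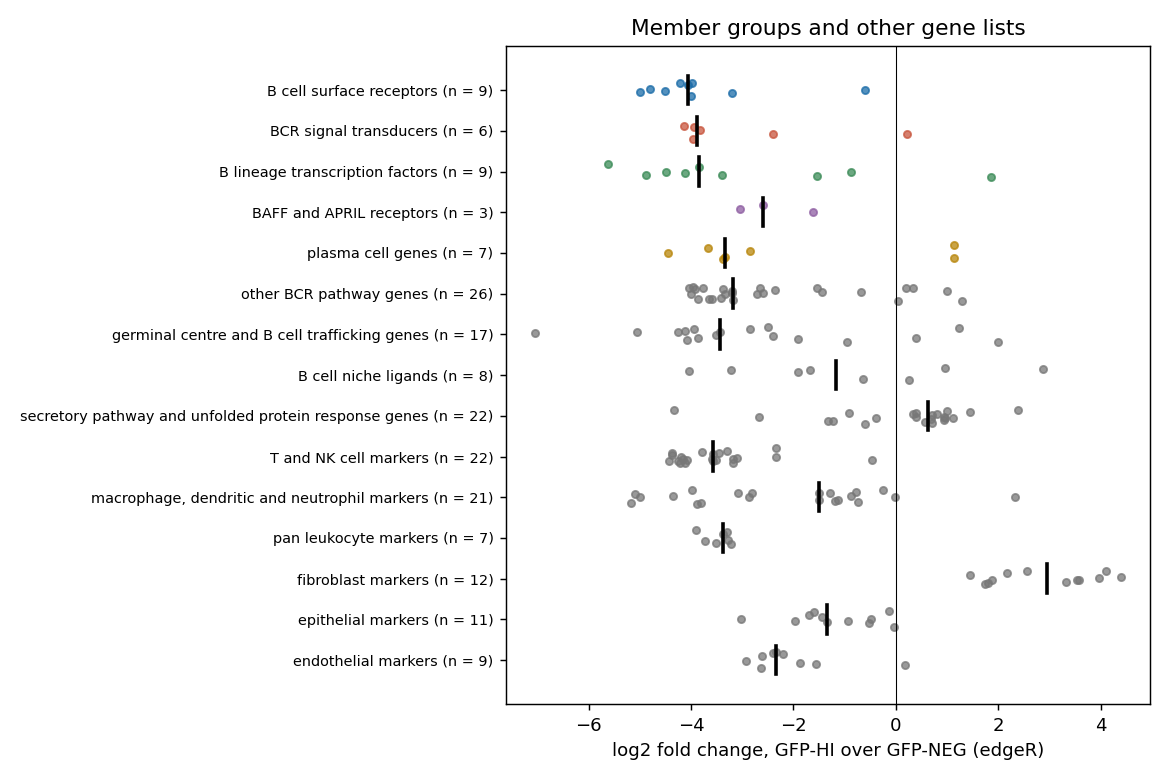
Fitted log2 fold change of GFP-HI over GFP-NEG for each tested gene (points, spread vertically only to avoid overlap) by role for the 34 tested members (coloured) and by list for the other genes (grey), with black bars at the medians. The member roles have medians from -4.07 to -2.59 with single genes near or above 0, the secretory list centres on 0.62 and the fibroblast list on 2.95.

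All members but FCER2 appear in the authors' deposited table, 34 in number. Its log2 fold changes run from -5.65 for ZBTB32 to 1.84 for EBF1, with 30 of the 34 negative, and differ from the values fitted here by at most 0.0332. For CD79A the authors' deposited table gives -0.61 and for CD79B -4.22.

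In the RefSeq annotation, 12 of the 35 genes overlap another gene, 22 do not, and FCRL1 has no single entry. The strand setting of the counting is not given in the sources used here, so for the 12 the reads of the overlapping gene may be included. EBF1, the member that passed as higher, is among the 12 and overlaps LOC106506547. SWAP70 overlaps LOC106509419. Of the 26 lower genes, 16 have no overlapping gene. CD37 overlaps TEAD2, a Hippo pathway factor that was at 39.4 and 20.2 CPM in GFP-HI and 12.6 and 10.4 CPM in GFP-NEG, the reverse order to that of CD37. CD72 overlaps the kinase gene TESK1, which was at 13.4 and 9.37 CPM in GFP-HI and 4.49 and 10.1 CPM in GFP-NEG.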

How the data were processed

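Per the file headers and the values, the authors deposited a raw count table (29263 genes) for every library and a comparison table of 16250 genes whose 4 count columns are identical to them and whose log2 fold change the authors computed. FeatureCounts, Subread 1.5.2 and DESeq2 1.37.6 are named in the submitters' processing notes; aligner, strand setting and genome build are not given in the sources used here. The 4 columns of normalized values per sample in that table were not used. Of the identifiers, 834 received a symbol from the gene name table. Other cell type and pathway lists held 176 genes, of which 160 were found. No immunoglobulin gene symbol was found.

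Groups and replicate numbers come from the titles. The main fit was edgeR 4.0.16 (R 4.3.3, quasi-likelihood, TMM, filterByExpr, group as only term) over 19682 genes, holding 99.8% of counts, with Benjamini-Hochberg adjustment and a threshold of 0.05. The prior degrees of freedom of this fit came out infinite, so each gene was given the shared spread. The standard error is the fold change divided by the square root of F. Within-replicate log2 differences used a prior count of 2, and folds used CPM with a count of 0 set to the floor of 3. The procedure was tested on simulated data. The headings of the comparison table name a GFP-positive and a GFP-negative library for each of the pigs 1 and 2, so the replicate number was taken to pair libraries of an animal, although by LGR5 2 of these 4 headings stand over values of the opposite fraction; deviations of same-numbered libraries correlated at 0.159 across genes. All 35 members are named; of other lists, at most 4 called genes with the largest change and a mean of at least 10 CPM, plus PTPRC and genes stated as chosen after their values were seen; some genes that this rule names are not reported here. Members and lists were chosen with earlier results of these data known. The test between replicates, added after seeing the data, used the replicate term of the fit with the replicate block. Alternatives were 3 other scalings, no count filter, DESeq2 1.42.0, the replicate block, thinning of GFP-HI and leaving out each library.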

Additional observations from a re-analysis of the deposited data

How the results depend on the processing

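With the replicate block, 27 members were lower and 1 was higher (26 and 1 without it) and the member median was -3.80; the block added TNFRSF13B and ended no member's call, and 1707 genes were higher and 4793 lower overall. The members lower in GFP-HI numbered 26 or 27 under each scaling, without the count filter and under DESeq2. The same held with the block and after thinning GFP-HI. The genes were not the same throughout, as FCRL1 missed the threshold under DESeq2 and BACH2 without the filter. FCER2, left out of the main fit by its filter, was counted as lower under DESeq2 and without the filter. Library size alone and upper-quartile scaling moved the member median from -3.75 to -4.25 and -4.12, the median of all genes tested from -0.25 to -0.68 and -0.58, and the number of higher genes from 1643 to 888 and 1083. When single libraries were left out, members lower ranged from 21 to 26, members higher from 0 to 1, the member median from -4.07 to -3.15, genes higher from 216 to 1635 and genes lower from 1575 to 4999. A group is then 1 library, and fewer libraries bear the fit; the cause of the other shifts was not tested. The number of members with both GFP-HI libraries below both GFP-NEG libraries was 29 under 4 alternatives and 30 without the count filter, where FCER2 enters. In the edgeR test adjusted for fraction, 0 members passed as higher in replicate 2. Such members numbered 3 with library size alone, 3 with upper-quartile scaling and 1 under DESeq2. Of all genes, 35, 36 and 16 passed as higher in these alternatives, which were chosen after seeing the data. Leaving out a library leaves this test no residual degrees of freedom. GFP-HI levels of several receptors rest on few counts, such as 0 and 25 for FCRL1 and 0 and 7 for FCER2.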
